A study of Mus musculus with 2 samples.

Results

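Runs of neighbouring control peaks that were absent together from Brg1-deficient cells were described in sorted kidney cells of mice at E18.5. The assay was ATAC-seq, which maps open chromatin by the places where a transposase inserts. A run was defined from the control peak list on chromosomes 1 to 19 as 4 or more consecutive peaks, each at most 50 kb from the next, none of which overlapped a peak of the Brg1 cKO list by 1 bp or more. Of 76325 control peaks on these chromosomes, 19799 overlapped no cKO peak (25.9%, hereafter unmatched), and 1677 of these lay in 366 runs. The members were thus chosen by the overlap itself, so the loss of their peaks is a description and supports nothing further. The series holds 2 libraries of FACS-purified tdTomato cells of the Wnt4 lineage, 1 from kidneys labelled Brg1cKO/cKO with 61210 peaks in all and 1 from kidneys labelled WT control with 77529. Both were made from 50000 cells per reaction. The cell type label of the second library reads only control, so that it holds the same lineage rests on its title and the series' design text. For the Cre driver, the number of kidneys pooled and any allele carried by the controls, the sources used here give nothing. With 1 library per genotype no replicate check was possible, so nothing was tested between genotypes, and the intervals given are 95% intervals for counting error only. The depth of either library is unknown; weak peaks depend on it, and its part in the results was not tested. Wnt4 itself, including 1000 bp on either side, had 4 cKO peaks and 6 control peaks, and the erythroid gene Hba-a1 had no peak in either library. The immune gene Ptprc had 0 cKO peaks and 1 control peak. Genes of the endothelial, immune and erythroid lists were assigned 167, 40 and 15 control peaks, counting genes with at least 4, and the part of such cells in the results was not tested.

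Brg1, encoded by Smarca4, is an ATPase of the BAF complexes, which move or evict nucleosomes and keep enhancers open. Genes that define a cell type often carry many open elements along their introns and flanks, and such neighbouring elements can act on the same promoter. In the Wnt4 lineage, which forms the epithelia of the nephron, the cell types with the best known gene programmes are podocytes, the filtering cells of the glomerulus, and the tubule segments.

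Promoters under matched peaks in genes with long runs are set beside promoters under peaks of runs. The 250 bases before the start site of 3 genes with long runs, whose promoters were covered by a control peak that overlapped a cKO peak, are given first, followed by 3 promoters covered by a peak of a run. Sequences are from RefSeq on GRCm38.p6, the assembly of mm10, 5′ to 3′ on the gene's strand, with each CG dinucleotide in capitals. Lef1 (chr3:131110047-131110296, plus strand), Srgap1 (chr10:122047316-122047565, minus strand) and Tjp1 (chr7:65371245-65371494, minus strand) held runs within the gene but had a matched promoter. The Tjp1 start site lies inside the annotated gene, not at its end.
Lef1: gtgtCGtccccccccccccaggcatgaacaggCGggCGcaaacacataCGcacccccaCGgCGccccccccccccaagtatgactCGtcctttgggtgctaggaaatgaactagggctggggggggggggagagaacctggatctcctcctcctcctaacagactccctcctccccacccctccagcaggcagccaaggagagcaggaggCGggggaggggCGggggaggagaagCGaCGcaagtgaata
Srgap1: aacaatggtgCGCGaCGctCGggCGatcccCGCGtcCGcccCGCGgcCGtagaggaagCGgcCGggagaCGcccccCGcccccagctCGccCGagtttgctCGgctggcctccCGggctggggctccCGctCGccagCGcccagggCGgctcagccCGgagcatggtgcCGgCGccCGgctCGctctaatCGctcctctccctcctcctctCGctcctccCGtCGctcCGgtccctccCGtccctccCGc
Tjp1: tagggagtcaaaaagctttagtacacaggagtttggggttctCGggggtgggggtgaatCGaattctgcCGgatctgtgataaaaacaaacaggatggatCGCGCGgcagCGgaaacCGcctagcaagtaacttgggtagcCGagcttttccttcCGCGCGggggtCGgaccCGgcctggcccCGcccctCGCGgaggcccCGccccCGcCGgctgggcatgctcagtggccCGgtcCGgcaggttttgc
Slc5a10 (chr11:61719986-61720235, minus strand), R3hdml (chr2:163492068-163492317, plus strand) and one promoter of Mob2 (chr7:142025960-142026209, minus strand) lay under a peak of a run.
Slc5a10: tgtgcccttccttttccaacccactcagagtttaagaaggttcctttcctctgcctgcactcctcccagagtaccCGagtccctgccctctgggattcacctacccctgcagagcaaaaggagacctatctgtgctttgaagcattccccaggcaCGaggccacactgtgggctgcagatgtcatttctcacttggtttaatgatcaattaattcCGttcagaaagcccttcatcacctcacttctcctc
R3hdml: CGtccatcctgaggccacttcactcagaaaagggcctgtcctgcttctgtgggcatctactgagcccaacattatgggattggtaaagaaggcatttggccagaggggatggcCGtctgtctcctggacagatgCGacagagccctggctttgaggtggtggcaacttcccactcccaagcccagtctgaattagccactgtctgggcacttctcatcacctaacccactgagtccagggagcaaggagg
Mob2: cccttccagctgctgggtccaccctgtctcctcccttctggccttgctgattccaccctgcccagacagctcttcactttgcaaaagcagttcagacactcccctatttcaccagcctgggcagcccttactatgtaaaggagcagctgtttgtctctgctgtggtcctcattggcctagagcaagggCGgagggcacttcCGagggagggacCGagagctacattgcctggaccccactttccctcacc

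These 250 bases held 11 CG in Lef1, 35 in Srgap1 and 22 in Tjp1, against 3 in each of Slc5a10, R3hdml and Mob2. CG reads the same on both strands. Of all 31396 promoter windows of this length, 3.08% held at least 35, 15.3% at least 22 and 36.1% at least 11. At least 3 were found in 71.3% and at least 1 in 92.4%. Peaks of runs covered few promoters, but they were also few, 1677 against 18122 other unmatched and 56526 matched peaks. The counts are not at equal strength. Matched peaks had a median -log10 p of 6.32 in the control list, and each other group 4.76. Of the RefSeq windows from 250 bases before to 50 after a start site of a protein-coding gene, 5 lay under a peak of a run and under no matched peak, 248 under other unmatched control peaks only and 13148 under a matched control peak. Within the 250 bases before the start site the median number of CG was 3 under peaks of runs (2 to 7). It was 4 under other unmatched peaks (0 to 35) and 16 under matched peaks (0 to 56). The 5 genes were Slc5a10, a sugar transporter gene of the kidney, R3hdml, Mob2, the fetuin gene Fetub and the uroplakin gene Upk3b. Mob2 also had 3 promoters under matched peaks, while the second promoter of Slc5a10 and of Fetub lay under no control peak. Another 12 windows in runs belonged to genes of other biotypes.

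In the full control list the run with most peaks lay in Wt1, which encodes a zinc finger transcription factor needed in nephron progenitors and for podocyte identity (mm10 chromosome 2, 105126529 to 105173614). It held 12 control peaks over 30.0 kb (105146446 to 105176479), 11 of them inside the gene, and no cKO peak lay between its first and last base. In order of position their -log10 p in the control list was 5.24, 4.47, 4.38, 4.32, 4.26, 4.12, 5.31, 5.79, 3.98, 4.91, 4.53 and 3.79. All 12 were below the median of matched control peaks, 6.32. They were wide, however, from 1053 to 2855 bp with a median of 1492 bp, where the median over the 366 runs' own medians was 632 bp and only 7 runs exceeded 1000 bp. Peaks covered 11.5 kb of the 47.1 kb gene in the cKO library and 35.7 kb in the control, that is 24.4% and 75.9%. With the control list shortened to as many peaks as the cKO list holds, keeping the most significant, 4 consecutive peaks of this run were counted in place of 12. Other runs then had more, with 6 at Grm4 and in Srgap1 and 5 in Lef1, Galnt10 and Lpin2. By number, 4 cKO peaks and 13 control peaks had their summit within the gene, and all 4 cKO peaks overlapped a control peak. The run was bounded by matched control peaks 1.71 kb before it and 1.76 kb after it. Whether these peaks came from podocytes or other cells was not tested, nor was the part of library depth. In sorted cells, fewer cells with these peaks and less open chromatin per cell cannot be told apart.

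**Figure D1:**
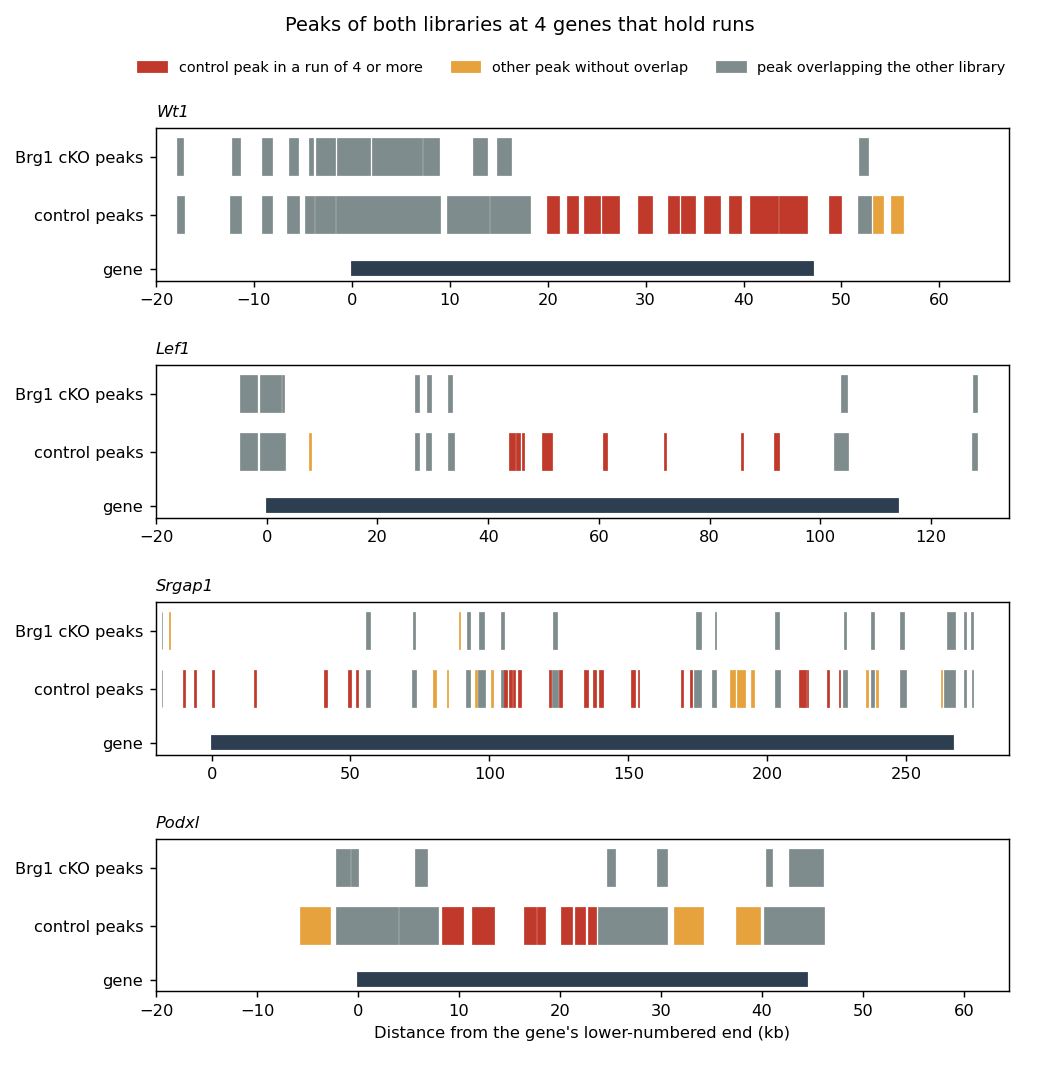
Peaks of the Brg1 cKO library (upper row) and the control library (lower row) along Wt1, Lef1, Srgap1 and Podxl, with the gene as a dark bar and distance in kb from its lower-numbered end on the x axis; bars span each peak and do not show its height. Red control peaks belong to runs of 4 or more, and at Wt1 12 of them follow each other with no cKO peak between.

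The second longest run had 9 peaks over 78.1 kb (chromosome 17, 27329655 to 27407761) and lay in no protein-coding gene, 14.6 kb from Grm4, a glutamate receptor gene. Its -log10 p values were 4.68, 4.19, 5.62, 5.29, 4.89, 5.95, 4.99, 4.26 and 8.96. The last of these was the strongest peak of any run, and the other 8 were below the median of matched peaks. The distance from a peak of this run to the nearest cKO peak ran from 3.77 to 39.7 kb.

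Srgap1, which encodes a protein of the Slit-Robo pathway (chromosome 10, 121780991 to 122047911), held more runs than any other gene. Its 4 runs had 7, 5, 8 and 6 peaks in order of position, 26 in all, over 62.9, 16.7, 47.7 and 14.8 kb. In the run of 8 the -log10 p values were 5.56, 5.62, 4.84, 7.17, 4.91, 4.65, 4.81 and 3.87. The gene held 14 cKO peaks and 47 control peaks, and 13 of the control peaks were matched. Each of its runs of 8, 6 and 5 peaks lay wholly inside the gene, and the run of 7 reached beyond the end opposite to the promoter. The matched peaks beside the run of 8, at 0.573 and 0.762 kb, had -log10 p of 8.93 and 8.29. Other matched peaks between the runs had values from 5.39 to 9.43.

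Gna12 and Lef1 each held a run of 8 peaks inside the gene. Gna12 encodes the alpha subunit of a G protein (chromosome 5, 140759944 to 140830431), and its run over 36.8 kb had -log10 p of 5.04, 5.96, 4.56, 4.35, 5.33, 5.84, 4.62 and 4.05. Its last peak lay 156 bp from a cKO peak and its first 406 bp. Lef1 encodes a transcription factor through which Wnt signals act with beta-catenin (chromosome 3, 131110297 to 131224357). Its run over 48.7 kb had values of 7.62, 4.26, 4.86, 5.54, 4.12, 4.73, 4.78 and 5.50, and lay 10.0 kb from the matched peak before it and 9.93 kb from the one after. The first peak of this run was stronger than the median matched peak and the other 7 were weaker. Within Lef1 there were 6 cKO peaks and 14 control peaks, and a matched peak covered the promoter printed above.

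Across the 20 longest runs, which had 7 to 12 peaks and 151 in all, 15 runs lay wholly inside 1 gene and 19 were bounded by matched control peaks on both sides. Of the 151 peaks, 7 had a -log10 p above the median of matched peaks. Unmatched peaks outside runs were weak as well, with an upper quartile of 5.15, so this is no trait of the longest runs. The 20 runs belonged to 19 genes, 14 of which had an entry in the promoter table, and in all 14 a promoter was covered by a matched control peak. Members with 8 or 7 peaks included Abtb2, Prkce for protein kinase C epsilon, and the glycosylation enzyme genes Mgat5 and Galnt10. Tjp1, for the tight junction scaffold ZO-1, Ptpn14, for a phosphatase of the Hippo pathway, and Lpin2, for a phosphatidate phosphatase, were also among them. So were Tmem131, Plekha5, 1700025G04Rik and 0610040J01Rik. Prkce kept many peaks outside its run, with 32 cKO and 49 control peaks inside the gene. Lpin2 had 1 cKO peak and 9 control peaks, and Lgr4, a receptor gene for R-spondins, had 2 and 11. Arid2, for a DNA-binding subunit of the PBAF remodelling complex, had no cKO peak summit inside the gene and 5 control peaks, all unmatched. Peaks still covered 1.94 kb of this gene in the cKO library, and 6.53 kb in the control. The run at Cpe, for carboxypeptidase E, was the longest in base pairs, 160 kb, and was sparse, with 3 of its 7 peaks in the gene and 2 unmatched cKO peaks between them. With a gap limit of 25 kb it kept only 3 successive peaks and was no longer a run.

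**Figure D2:**
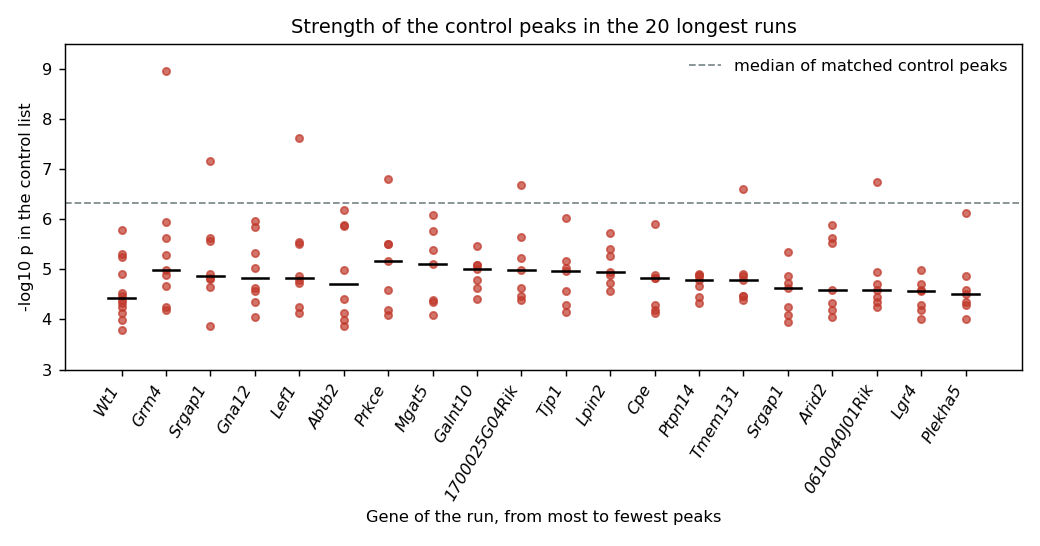
Each dot is 1 control peak of the 20 longest runs, with its -log10 p in the control list on the y axis, runs ordered by number of peaks and named by gene on the x axis; black bars are run medians and the dashed line is the median of matched control peaks, 6.32. All but 7 of 151 peaks lie at or below the line, and unmatched peaks outside runs had an upper quartile of 5.15.

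Podocyte genes held 8 of the runs. Of 30 listed genes, 25 had at least 4 control peaks assigned to them, and 7 of these (28%) had a run, against 337 of 6255 protein-coding genes with at least 4 assigned control peaks (5.39%). The listed genes carried more peaks, a median of 15 per gene with at least 4, where all such genes had 7. A run was found in 12.1% of the 684 genes with 15 to 24 control peaks and 30.5% of 328 with 25 or more. Besides Wt1 and Tjp1 the genes were Podxl, Ptpro, Lama5, Vegfa and Dach1. Wt1, Tjp1, Podxl and Dach1 had 30, 32, 31 and 30 assigned control peaks, and Ptpro, Lama5 and Vegfa 13, 11 and 23. The list was written with earlier results of these data known, in which podocyte genes already stood apart, so its count is not independent evidence. With the control list shortened to cKO length, 3 podocyte genes had a run, and with 3 or more peaks per run 11 did.

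Podxl, for the podocyte surface sialomucin podocalyxin (chromosome 6, 31519493 to 31563937), had a run of 7 inside the gene over 15.3 kb and a run of 4 that lay 37.1 kb outside it. The 7 had -log10 p of 4.94, 5.06, 4.29, 4.12, 3.98, 4.32 and 4.53 and widths from 772 to 2176 bp. Peaks covered 5.29 kb of the gene in the cKO library and 33.4 kb in the control, 11.9% and 75.1% of its length. As at Wt1, the run consisted of weak, wide peaks lying close together. Ptpro, for a receptor phosphatase of podocyte foot processes, had a run of 5, and held 4 cKO peaks and 13 control peaks. Lama5, for the laminin alpha 5 chain of the glomerular basement membrane, had a run of 5, and held 3 cKO peaks and 8 control peaks. Dach1, for a transcription cofactor found in podocytes, had a run of 4 and held 10 and 23 peaks. The run of 4 at Vegfa, the endothelial growth factor gene, lay mostly outside the gene, with 1 peak inside it.

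Genes with several runs numbered 15. Ptpn14 had 3 runs with 15 peaks in all, Maml3, for a coactivator of Notch signalling, had 3 with 14, and Arid1b and the growth factor receptor gene Igf1r had 3 with 13 each. Sipa1l2, with 2 runs of 6 and 4 peaks, and Fndc3b, with 2 of 5 and 4, held theirs chiefly within the gene. Inside Ptpn14 there were 9 cKO peaks and 29 control peaks, 9 of them matched. Arid1b held 21 cKO and 48 control peaks, and Igf1r 25 and 42. Outside genes, 2 runs of 6 and 4 peaks had Foxl1 as the nearest protein-coding gene, at 3.36 and 97.0 kb. The podocyte and vascular transcription factor gene Foxc2, chosen after its values were seen, lay 15.1 kb from the first of them. A further 2 runs lay 499 and 196 kb from Zfp608.

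Runs were also found at genes of other lists. Over all protein-coding genes that had 4 or more control peaks, 5.39% had one, and of those with 6 to 9 control peaks 3.48% and with 10 to 14 6.36%. The share was 0.932% with 4 or 5 control peaks, 12.1% with 15 to 24 and 30.5% with 25 or more. The BAF list had a median of 7 control peaks per gene, the Wnt list 10.5 and the actin and adhesion list 12. Among genes of the BAF and PBAF complexes, Arid1b, Arid2 and Dpf3 had a run, 3 of the 8 with at least 4 control peaks (37.5%). Arid1b and Dpf3, with 61 and 24 assigned control peaks, encode subunits of BAF complexes, and Arid2 had 5 such peaks. In the Wnt signalling list 3 of the 20 genes with at least 4 control peaks had a run, namely Lef1, Lgr4 and the co-receptor gene Lrp5. In the list of actin and adhesion genes 4 of 20 did: Rac1 and Itga2, with runs of 5, and Arhgef7 and Dlc1, with runs of 4. Rac1 encodes a small GTPase of the actin cytoskeleton and Itga2 an integrin chain. With the control list shortened to cKO length, 0 BAF genes, 1 Wnt gene (Lef1) and 0 actin and adhesion genes had a run. Nephron progenitor genes with a run were 1 of 10, early nephron genes 1 of 17 and interstitial genes 1 of 14. These were Pax2, a regulator of kidney development, with a run of 5, the cadherin gene Cdh4 with 4 and the netrin gene Ntn1 with 4. Pax2 held 7 cKO peaks and 12 control peaks inside the gene, all 5 unmatched ones in the run. No gene had a run among the 9 proximal tubule, 7 loop and distal tubule, 11 collecting duct and 11 endothelial genes with at least 4 control peaks. The same held for the 4 smooth muscle and pericyte, 5 immune, 3 erythroid and 4 neural genes. These lists are small, so a count of 0 says little about them.

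Genes with a run were long and rich in peaks. Part of this is set by the rule, since a run needs 4 or more consecutive peaks and more peaks give more places for one. The share of genes with a run was 0.932% of those with 4 or 5 assigned control peaks, 3.48% with 6 to 9, 6.36% with 10 to 14, 12.1% with 15 to 24 and 30.5% with 25 or more. Genes that held a peak of a run had a median length of 133 kb, and all genes holding at least 4 control peaks 92.9 kb. Among genes with a run, 4 or more assigned peaks and an entry in the promoter table, a promoter lay under a matched control peak in 246 of 264 (93.2%), and among all genes with 4 or more peaks and an entry in 4309 of 4867 (88.5%). Of the other 18 genes with a run, 17 had no control peak at a promoter and 1 had a promoter under a peak of a run.

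Runs were more numerous than the strength of their peaks would give. Peaks were divided into 10 equal strength classes by -log10 p within the control list. The unmatched share was 64.5% in the weakest class, 23.5% in class 5 and 0% in the strongest. Had each peak been unmatched with the share of its class, independently of its neighbours, the list would hold 226 runs with 987 peaks, an exact sum over the list rather than a test. The observed 366 runs were 1.62 times and the 1677 peaks 1.70 times as many. Longer runs also outnumbered the sum: 134 runs had at least 5 peaks where 60.1 would be counted, and 45 had at least 6 against 16.3. At least 7 peaks were held by 23 runs against 4.68, and at least 8 by 6 against 1.28. For 12 peaks the sum was 0.0083, but this length was picked as that of the longest run, at Wt1. Gaps within that run were 115 to 2259 bp, and the sum takes neighbours as independent. It therefore gives no measure of chance for the Wt1 run. With classes of both p and area, the sum was 206 runs. With 3 or more peaks per run, 1179 runs were counted and 873 summed, and with the control list shortened to cKO length 62 and 28.2.

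**Figure D3:**
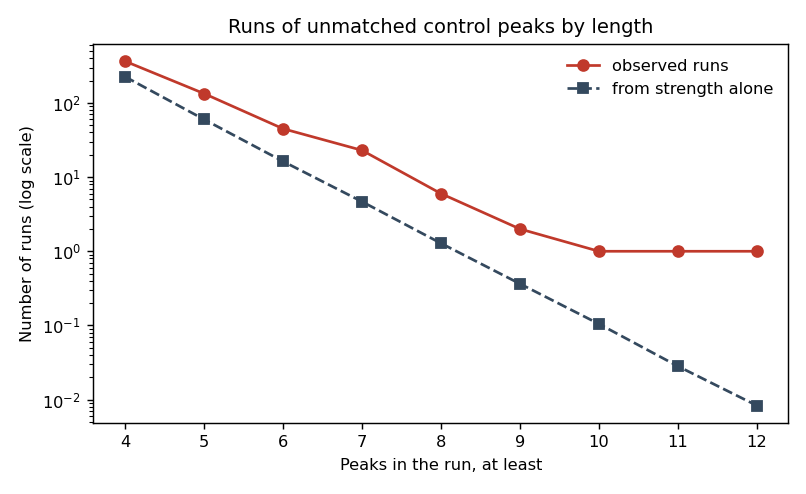
Number of runs (log scale) with at least the number of peaks on the x axis, as observed and as summed from the unmatched share of each peak's strength class with neighbours taken as independent. Observed counts are 366 against 226 at 4 peaks and 23 against 4.68 at 7.

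The same overlaps and strength classes were also counted between single neighbours. This describes the excess of runs in another way and is no separate support for it. The intervals take the pairs as independent. In the weakest class a control peak was unmatched in 73.1% of 1878 cases (71.0 to 75.1%) when the peak before it within 50 kb was unmatched, and in 62.7% of 4860 cases when that peak was matched. In class 4 the shares were 45.7% and 34.8%, in class 7 11.4% and 6.17%. In the strongest 2 classes the shares were close to 0 with either neighbour. Weighted over classes the difference was 5.68 points (5.04 to 6.32). It was 11.7 points for neighbours less than 2 kb apart, 6.47 at 2 to 5 kb, 5.02 at 5 to 10 kb, 2.86 at 10 to 20 kb and 1.77 (0.329 to 3.21) at 20 to 50 kb. At 50 to 100 kb the difference was 2.22 points with an interval from -0.0224 to 4.46. At 100 to 500 kb it was 1.69 points (-1.13 to 4.51), so no further fall was seen beyond 20 kb. A single wide cKO peak can make both neighbours matched. Of pairs of matched neighbours under 2 kb apart, 917 of 8864 (10.3%) shared a cKO peak, but beyond 2 kb only 3 of 29133 did.

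**Figure D4:**
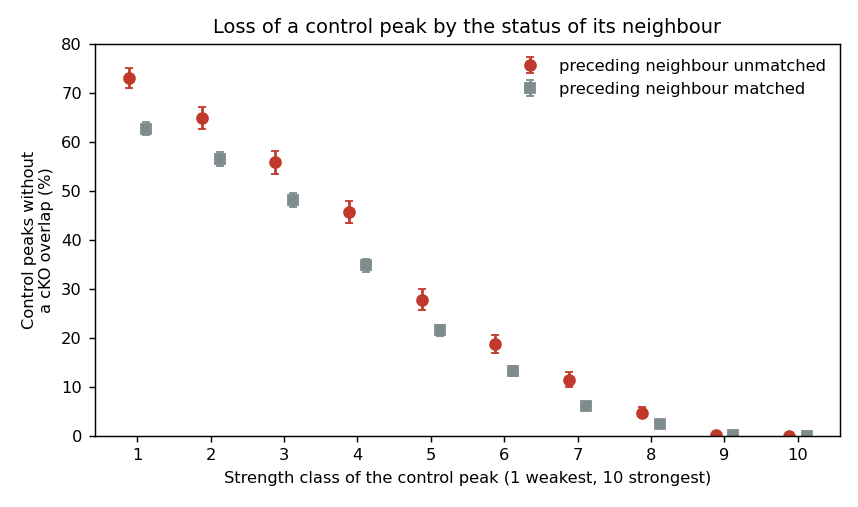
Share of control peaks without a cKO overlap (y axis, %) by strength class (x axis, 1 weakest), for peaks whose preceding neighbour within 50 kb was unmatched or matched; bars are exact 95% binomial intervals. The share is higher beside an unmatched neighbour in each of the first 8 classes.

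**Figure D5:**
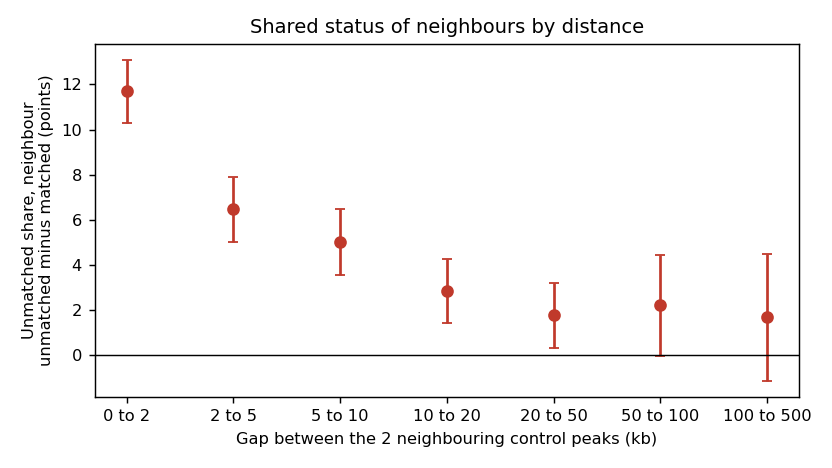
Difference in unmatched share (points) between control peaks beside an unmatched and beside a matched neighbour, weighted over strength classes, by the gap between the neighbours in kb; bars are 95% intervals for counting error. The difference is 11.7 points under 2 kb, 1.77 at 20 to 50 kb and 1.69 at 100 to 500 kb.

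Peaks in runs were as weak as other unmatched peaks and differed in place and width. Their median -log10 p was 4.76, that of other unmatched peaks 4.76 and that of matched peaks 6.32. Median width was 637 bp in runs, 576 bp in other unmatched peaks and 1007 bp in matched peaks; with all groups weighted to the strength classes of the run peaks the values were 645, 589 and 690 bp. Summits inside a protein-coding gene made up 77.6% of the 1677 run peaks, against 59.6% of 18122 other unmatched and 56.6% of 56526 matched peaks, and 59.7% and 53.2% for the last groups at equal strength. Only 6.14% of run peaks lay within 1000 bp of an annotated gene end, against 10.9% of other unmatched and 33.1% of matched peaks, or 10.8% and 14.3% at equal strength. Matched peaks end a run and lay near gene ends more often. The rule itself may thus lower the share of run peaks there and raise that inside genes, and its part was not tested. Of the runs, 242 (66.1%) had all peaks inside 1 gene, 64 had some inside, and 60 (16.4%) had none. The 60 runs outside genes lay a median of 32.0 kb from the nearest protein-coding gene, at most 701 kb. Counted as windows of 4 consecutive peaks with no peak near a gene end, 364 of 468 windows in runs (77.8%) and 12728 of 21218 windows over all control peaks lay in 1 gene. Such windows in runs were slightly more compact, with a median span of 26.0 kb, against 28.1 kb.

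Runs spanned a median of 33.7 kb, from 4.71 kb in Tns3, for the focal adhesion protein tensin 3, to 160 kb at Cpe, and 14 Mb in all. Most were enclosed by matched peaks, 312 on both sides, 48 on one side only, and 6 were enclosed by gaps over 50 kb. Peaks in runs were a median of 11.9 kb from the nearest cKO peak, other unmatched peaks 6.27 kb, a distance that the absence of matched neighbours itself lengthens. At the edge of the rule, 232 runs had 4 peaks and 813 stretches just outside had 3, with median -log10 p of 4.77 and 4.78. The largest gap inside a run was 49812 bp, and the smallest gap over the limit between a run and a further unmatched peak was 51420 bp. Only 2 run peaks lay within 100 bp of a cKO peak, the closest at 74 bp, and 16 of 56526 matched peaks overlapped their cKO peak by under 100 bp. Of the strongest runs by median, Trappc9 had 4 peaks with a median -log10 p of 6.56 and Adcy1, for an adenylate cyclase, had 5 with 6.55.

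On 18 of the 19 chromosomes more runs were counted than summed from strength, by 1.29 times on chromosome 8 to 2.02 times on chromosome 17. Chromosome 19 had 6 runs, against 6.21 summed. Between 23.9% and 28.0% of a chromosome's control peaks were unmatched.

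In the other direction the same rule found 4 runs among the 60176 cKO peaks on these chromosomes, of which 3543 (5.89%) overlapped no control peak. Each had 4 peaks, 16 in all, where strength alone gave 0.63 runs. They lay in Ldb2, for a LIM domain binding protein, partly in Stat5a, for a transcription factor of cytokine signalling, and 309 and 264 kb from Thbs1 and Npvf. With the control list shortened to cKO length, cKO runs numbered 49. The number of runs in either direction thus moved with the lengths of the lists and is no comparison of the genotypes.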

How the data were processed

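Genome-wide ATAC-seq peak lists, 1 per library and genotype, were read in narrowPeak form. The submitters' processing notes name Trim Galore, SAMtools, Genrich and mm10. For the labels' molecule, total RNA, the protocol gives ATAC-seq instead. Aligner, settings, versions and treatment of duplicates are not given in those sources. The authors' score per peak is capped at 1000 and was not used. The deposited signal of a peak is its area in the caller's output. The deposited -log10 p and q are the caller's own, depend on depth and background, and served to rank peaks of 1 list.

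Coordinates are 1-based. Genes and promoter windows came from RefSeq tables of GRCm38.p6, with 20665 protein-coding genes on chromosomes 1 to 19. A gap was the distance between peak edges. A run was tied to the protein-coding gene holding most of its summits, otherwise to the gene with the nearest end; single peaks were assigned to the gene holding the summit, otherwise to that with the nearest end. Python 3.11.15 with pandas 2.3.3 and SciPy 1.17.1 was used. The number of runs was set beside an exact sum over the list, in place of reshuffling the overlaps; the run finder and the sum were tested on simulated data. Share intervals are exact Clopper-Pearson, and those of differences use a normal approximation.

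The members, the 15 gene lists (247 genes) and the tests were chosen with earlier results of these data known. Named are the genes of the 20 longest runs (ties by higher median -log10 p), at most 10 genes with 2 or more runs, and list genes with a run; genes named for a promoter, for an extreme median or span, or in the cKO runs were chosen after their values were seen. Alternatives changed the overlap, gap, run length, control list and strength classes.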

Additional observations from a re-analysis of the deposited data

How the results depend on the processing

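The excess of runs over the number summed from strength was kept under all 11 other settings, between 1.35 times, with 3 or more peaks per run, and 2.23 times, with 5 or more. The difference between neighbours kept its direction, from 5.41 to 7.86 points; the values outside its interval were 6.66 with 50% of the control peak covered, 7.86 with a cKO peak within 500 bp counted as found and 6.46 with a gap of 25 kb. With 3 or more peaks there were 1179 runs with 4116 peaks (873 summed), 24 cKO runs, 11 podocyte genes and 5 Wnt genes with a run; with 5 or more, 134 runs with 749 peaks (60.1 summed), 0 cKO runs and 2 actin and adhesion genes. The Cpe run was lost with a gap of 25 kb and the Plekha5 run with the 500 bp margin, each with 3 peaks left. With the control list shortened to its most significant peaks, as many as the cKO list holds, 62 runs with 262 peaks were counted (28.2 summed), 49 cKO runs, 3 podocyte genes (Ptpro, Tjp1 and Wt1), 0 BAF genes, 1 Wnt gene and 0 actin and adhesion genes; the Wt1 run then had 4 consecutive peaks, and 15 of the 20 longest runs still held at least 4. The others were the runs at Arid2 (3 peaks left), the second of Srgap1, 0610040J01Rik and Plekha5 (2 each) and Lgr4 (1). This setting removes weak control peaks by construction. With 50% of a peak covered, cKO runs numbered 8 and the Wt1 run had 14 peaks. Of 218 values recomputed, 177 stayed close to the main value and 41 moved. Only the difference between neighbours could reverse, since the other values are counts or shares, and it did not. Changing the run length could not alter that difference or the peak counts of the 20 longest runs. Classes by hundredths of p (227 runs summed) and by p and area (206), and the other settings for the BAF, Wnt and actin lists, were chosen after seeing the data. No paired analysis was possible because each genotype has 1 library. Depth per library is unknown, and its part in the runs was not tested.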

Other observations

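On chromosome X, outside the rule, 235 of 1096 control peaks were unmatched and 3 runs were found, the longest with 5 peaks.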
